A study of Mus musculus with 10 samples.

Results

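*Rpl39l*, *Upp1* and *Hsd17b14* are 3 of the 389 genes that the study lists as PGCLC genes, the genes enriched in primordial germ cell-like cells (PGCLC), and they were chosen by their measured dCD over WT UMI ratios in day 4 (d4) embryoid bodies (EB). Of the 389 listed genes, 386 were found in the R1 table, which held 32285 genes in all, and the E14Tg2a table held 27998. Among the 385 listed genes with at least 50 UMIs in the R1 libraries, *Rpl39l* had the largest dCD over WT ratio, *Upp1* the 8th largest and *Hsd17b14* the 30th largest. Over all cells *Hsd17b14* was therefore not among the largest rises. In the cells positive for *Prdm1* or *Dppa3* and negative for *Klf4*, the 3 genes took ranks 1, 2 and 3 of 319. Because the dCD over WT comparison chose these genes, its values are given as a description and without a test. The authors also placed all 3 genes in their list of ESC genes, and none in the EpiLC or EpiSC list.

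The data were UMI counts from droplet-based scRNA-seq of mouse cells in culture, with 1 library per condition. Cells of the male ESC line E14Tg2a, wild type, were profiled as ESC in 2i+LIF (2i ESC), ESC in serum plus LIF (S+L ESC), d1, d2 and d3 epiblast-like cells (EpiLC), epiblast stem cells (EpiSC), and d2 and d4 EB, with the 10x 3′ v2 kit. Cells of the male ESC line R1 were profiled as d4 EB of 2 genotypes with the v3 kit, WT and *Mll3/4* dCD. The dCD line is a single clone derived from R1 whose MLL3 and MLL4 proteins remain but lack histone methyltransferase activity, and no other agent separated the genotypes. EpiLC were made from 2i ESC with activin A and bFGF, EpiSC were kept in the same factors, and EB were made from d2 EpiLC in medium with BMP4, SCF, LIF and EGF. Listed PGCLC are the 91 d2 EB cells and 44 d4 EB cells of E14Tg2a that the authors assigned to PGCLC, and the remaining EB cells numbered 446 at d2 and 324 at d4.

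Primordial germ cells, the precursors of sperm and eggs, arise from the post-implantation epiblast and turn part of the naive pluripotency program back on, so a gene used in naive ESC and in PGC can follow a down and up course during PGCLC differentiation. *Rpl39l* encodes a paralog of the large-subunit ribosomal protein RPL39 and is known for its expression in male germ cells. *Upp1* encodes uridine phosphorylase 1, which splits uridine into uracil and ribose-1-phosphate. *Hsd17b14* encodes a 17-beta hydroxysteroid dehydrogenase of the short-chain dehydrogenase family. *Zfp42*, also called *Rex1*, is a marker of naive pluripotency that PGC express as well, and it is used below to divide cells.

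In GRCm38, *Rpl39l* (ENSMUSG00000039209) lies on chromosome 16 from 10170226 to 10174911, *Upp1* (ENSMUSG00000020407) on chromosome 11 from 9118103 to 9136170, and *Hsd17b14* (ENSMUSG00000030825) on chromosome 7 from 45554893 to 45567752. All 3 are protein-coding genes on the + strand, and 0 annotated genes overlap any of them. Their annotated transcripts have at most 3, 9 and 9 exons. The 3′ kits count reads near the transcript end, and of 410 windows of 91 bases in the last 500 transcript bases of each gene, 0 occurred in transcripts of another gene. Sharing of reads with *Rpl39* or another paralog was thus not seen for these transcript ends.

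Promoter sequences of RefSeq on GRCm38.p6 were found for 2 of the 3 genes, with 1 start for *Rpl39l* and several for *Upp1*, and *Hsd17b14* had no entry. They are shown to place the starts of these genes, and each run holds 250 bases before the start and 30 from it on. Capitals mark matches, on either strand, to the letters CCGGAA (an Ets core), GGGCGG (a GC box) or TGAGTCA (an AP-1 motif), which were picked after the sequences had been read and do not overlap each other here.
*Rpl39l*, chr16:10169978-10170257: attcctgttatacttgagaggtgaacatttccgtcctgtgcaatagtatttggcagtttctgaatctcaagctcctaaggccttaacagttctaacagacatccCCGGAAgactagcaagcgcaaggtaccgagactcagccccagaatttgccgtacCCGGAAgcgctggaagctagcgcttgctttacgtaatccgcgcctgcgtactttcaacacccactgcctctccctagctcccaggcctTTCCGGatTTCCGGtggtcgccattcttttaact
*Upp1*, chr11:9117853-9118132: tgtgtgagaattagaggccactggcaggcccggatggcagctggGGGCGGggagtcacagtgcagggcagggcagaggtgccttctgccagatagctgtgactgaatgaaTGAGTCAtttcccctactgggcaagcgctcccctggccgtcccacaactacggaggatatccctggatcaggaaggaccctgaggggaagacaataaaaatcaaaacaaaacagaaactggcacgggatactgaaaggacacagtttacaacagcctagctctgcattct
*Upp1*, chr11:9118257-9118536: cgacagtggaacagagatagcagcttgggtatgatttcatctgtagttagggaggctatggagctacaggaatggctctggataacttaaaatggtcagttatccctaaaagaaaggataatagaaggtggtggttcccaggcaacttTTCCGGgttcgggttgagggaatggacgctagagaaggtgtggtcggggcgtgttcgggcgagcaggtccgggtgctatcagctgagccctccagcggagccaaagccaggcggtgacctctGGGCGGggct
The *Rpl39l* run held CCGGAA 4 times, beginning 146, 92 and 4 bases before the start and 4 bases after it. Of 32851 mouse promoters of 300 bases, 14.9% held this motif at least once and 0.204% held it at least 4 times. The 300-base window of *Rpl39l* held 17 CpG, against a median of 7 over all promoters. Of the windows of *Upp1* shown, the first held the AP-1 motif, present in 5.20% of all promoters, and a GC box, present in 35.7%. The second held 1 Ets core and 1 GC box. CACGTG, an E-box present in 7.15% of promoters, was in neither gene's windows. These matches describe letters and were not tested as binding sites.

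Libraries held 227 to 537 cells in E14Tg2a, with median depths of 21658 to 36750 UMIs per cell, and 1416 WT and 1699 dCD cells in R1, with median depths of 13187.5 and 11751 UMIs. Mitochondrial genes took 5.21% of UMIs in WT and 6.84% in dCD. The libraries shared 8 cell barcodes over 7 of the 45 pairs, none of them with an R1 library. *Kmt2c* and *Kmt2d*, which encode MLL3 and MLL4, gave 47.5 and 29.4 CPM in WT and 53.8 and 29.1 CPM in dCD, and since the dCD proteins are inactive and not absent, these levels do not check the labels. Levels below are in CPM, the UMIs of a gene among each 1000000 UMIs of all cells in a group, and brackets give 95% intervals, exact for Poisson counts. Ratios have exact conditional 95% intervals, shares of cells exact binomial ones, and all of them cover counting error only. Where 0 UMIs were counted, the limit given after "up to" is 3 counts over the total of UMIs or cells. It lies below the upper end of the exact interval, which for *Rpl39l* in EpiSC was 0.289 CPM and 0.984% of cells. Nothing in the labels tells of a second culture, so a condition cannot be told apart from its library, and p-values are not given.

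*Rpl39l* was a naive and d1 EpiLC transcript that was not detected in EpiSC and was counted again in PGCLC. Its level was 85.8 CPM [79.7 to 92.1] in 2i ESC, 194 [186 to 203] in S+L ESC and 269 [259 to 279] in d1 EpiLC, the highest of the 10 E14Tg2a groups. It was 34.3 CPM [31.0 to 37.9] in d2 EpiLC and 9.87 [8.30 to 11.7] in d3 EpiLC. In EpiSC, 0 of 12760723 UMIs were *Rpl39l*, which allows a level of up to 0.235 CPM, and 0 of 373 cells held it, which allows a share of cells with a UMI of up to 0.804% and sets no limit on cells that express the gene. Listed PGCLC had 47.0 CPM [39.5 to 55.6] at d2 and 110.0 [90.9 to 132] at d4, whereas the remaining EB cells had 3.16 [2.22 to 4.35] and 3.98 [2.75 to 5.56]. Down the order d1 EpiLC, S+L ESC, d4 PGCLC, 2i ESC, d2 PGCLC, d2 EpiLC, d3 EpiLC, the intervals overlapped only between d4 PGCLC and 2i ESC (ratio 1.28 [1.05 to 1.56]), and between the remaining EB cells of d4 and d2 below them.

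The rise of *Rpl39l* from 2i ESC to d1 EpiLC was 3.13-fold [2.89 to 3.40] and was followed by a 7.83-fold lower level at d2. It reached nearly every d1 EpiLC, with UMIs in 96.1% of cells and at least 10 UMIs in 133 of 280 cells, against 74.0% and 14 of 227 in 2i ESC. The paralog *Rpl39*, part of the ordinary ribosome, had 2952 CPM in 2i ESC, 2784 in d1 EpiLC and 4521 in EpiSC, so its level in EpiSC was above that in 2i ESC where *Rpl39l* was at 0.

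*Upp1* was highest in ESC and, unlike *Rpl39l* and *Hsd17b14*, was already lower at d1. It had 288 CPM [277 to 299] in 2i ESC, 324 [313 to 336] in S+L ESC, 83.3 [78.0 to 88.9] in d1 EpiLC, 29.3 [26.2 to 32.7] in d2 EpiLC and 12.1 [10.3 to 14.03] in d3 EpiLC. The d1 EpiLC level was 3.46-fold lower than in 2i ESC. Listed PGCLC had 29.3 CPM [23.5 to 36.2] at d2 and 134 [113 to 158] at d4, and the remaining EB cells 12.2 [10.3 to 14.4] and 15.7 [13.1 to 18.6]. The level of *Upp1* in d2 PGCLC thus stood at that of d2 EpiLC (ratio 1.0003 [0.779 to 1.27]), and the higher level came between d2 and d4 PGCLC (4.56-fold [3.46 to 6.03]). The lowest groups, d3 EpiLC and the remaining EB cells of d2 and d4, had overlapping intervals, which alone does not show equal levels.

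*Upp1* had 46.7 CPM [43.0 to 50.6] in EpiSC, 3.87-fold [3.26 to 4.62] more than in d3 EpiLC, while the ratio of *Hsd17b14* was 1.32 with an interval of 0.795 to 2.20 that spans no change. Only 34.0% of EpiSC held a *Upp1* UMI, and the tenth of cells with the most *Upp1* UMIs held 73.3% of them, against 28.7% in d1 EpiLC and 25.9% in 2i ESC. In 17 of 373 EpiSC there were at least 10 *Upp1* UMIs, and in 246 there were none. EpiSC with *Zfp42* UMIs numbered 14 and had 32.1 CPM of *Upp1*, against 47.5 CPM in the others (ratio 0.677 [0.410 to 1.05]).

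*Hsd17b14* was high in ESC and d1 EpiLC and near its lowest level from d3 on. Its level was 128 CPM [121 to 136] in 2i ESC, 288 [278 to 299] in S+L ESC, 207 [199 to 216] in d1 EpiLC, 27.8 [24.8 to 31.1] in d2 EpiLC, 2.20 [1.496 to 3.12] in d3 EpiLC and 2.90 [2.04 to 4.00] in EpiSC. From d2 to d3 EpiLC it was 12.6-fold lower, the steepest step of the 3 genes between these days, where *Rpl39l* was 3.48-fold and *Upp1* 2.43-fold lower. Listed PGCLC had 18.1 CPM [13.5 to 23.6] at d2 and 23.7 [15.3 to 35.0] at d4, and the remaining EB cells 2.30 [1.52 to 3.35] and 1.29 [0.642 to 2.30]. The intervals of d4 PGCLC overlapped those of d2 PGCLC and of d2 EpiLC, and d3 EpiLC, EpiSC and the remaining EB cells had overlapping intervals too.

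From 2i ESC to d2 EpiLC, all 3 genes were at least 2-fold lower on the scale of log2(CPM + 1), at 0.400, 0.102 and 0.217 of the 2i level for *Rpl39l*, *Upp1* and *Hsd17b14*. The same held for 31.0% of the PGCLC genes tested and for 6.49% of all genes tested. The authors' ESC list, which holds all 3 genes, was built by comparing ESC with d2 EpiLC and EpiSC. The lower levels in d2 EpiLC are therefore a description and test nothing. S+L ESC had 2.26-fold more *Rpl39l* [2.08 to 2.47] and 2.26-fold more *Hsd17b14* [2.104 to 2.42] than 2i ESC, and 1.13-fold more *Upp1* [1.07 to 1.19]. Among the PGCLC genes tested, 9.87% were at least 2-fold higher in S+L ESC and 7.27% lower, and 9.73% of all genes were higher.

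**Figure D1:**
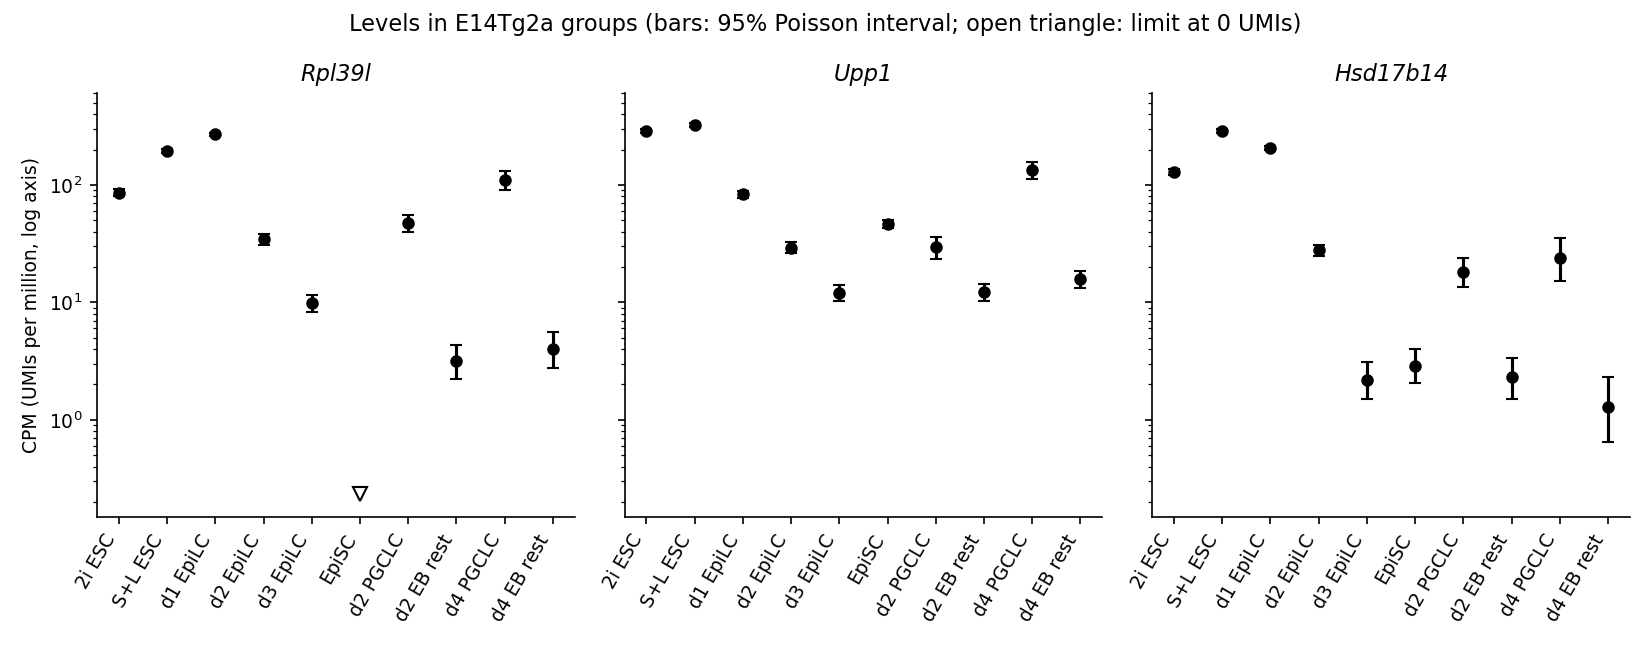
Levels of *Rpl39l*, *Upp1* and *Hsd17b14* in 10 groups of E14Tg2a cells, as CPM on a log axis, with points for the summed UMIs of a group, bars for exact 95% Poisson intervals and an open triangle for the limit where no UMI was counted. All 3 genes fall from ESC or d1 EpiLC to d3 EpiLC and lie higher in listed PGCLC than in the remaining EB cells, and *Rpl39l* is at 0 in EpiSC where *Upp1* has 46.7 CPM.

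In listed PGCLC of both days together, levels were 63.7 CPM for *Rpl39l*, 56.9 for *Upp1* and 19.6 for *Hsd17b14*, against 3.50, 13.7 and 1.88 CPM in the remaining EB cells. The ratios were 18.2 [13.9 to 24.0], 4.16 [3.48 to 4.98] and 10.4 [6.99 to 15.8], and 339 of the 389 PGCLC genes (87.1%) and 6.41% of all genes tested were at least 2-fold higher. The list was built on these cells, so the ratios describe it and test nothing. At d4 alone the ratios were 27.7, 8.53 and 18.4, and at d2 alone 14.9, 2.40 and 7.84. The d4 over d2 ratio within PGCLC was 2.34 [1.81 to 3.01] for *Rpl39l*, while for *Hsd17b14* it was 1.31 with an interval of 0.781 to 2.15 that spans no change.

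Within d2 PGCLC the transcripts sat in the cells with *Zfp42*. All 138 *Rpl39l* UMIs came from the 68 d2 PGCLC with *Zfp42* (59.5 CPM) and 0 from the 23 without it. *Upp1* had 34.5 CPM with and 9.78 without *Zfp42* (3.52-fold [1.55 to 9.89]), and *Hsd17b14* 22.0 and 3.26 (6.74-fold [1.77 to 57.2], with 2 UMIs in the cells without). Median depths were 32923 UMIs in the cells with *Zfp42* and 22648 in those without, and the part of depth in the split was not tested.

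The same split gave other ratios at other stages, and differences between stages were not tested. In d1 EpiLC the ratio of cells with to cells without *Zfp42* was 1.07 [0.948 to 1.22] for *Rpl39l*, 0.948 [0.768 to 1.18] for *Upp1* and 1.16 [1.0004 to 1.34] for *Hsd17b14*. In d2 EpiLC it was 1.76 [1.42 to 2.19], 1.91 [1.51 to 2.43] and 1.79 [1.41 to 2.29]. Among the remaining d4 EB cells, *Rpl39l* was 3.47-fold [1.67 to 7.43] and *Hsd17b14* 4.25-fold [1.08 to 19.8] higher with *Zfp42*, on 34 and 11 UMIs in all, whereas *Upp1* had 16.8 CPM with and 15.2 CPM without it. Among the remaining d2 EB cells the ratios were 0.960 [0.428 to 2.01] for *Rpl39l*, 1.13 [0.449 to 2.66] for *Hsd17b14* and 1.59 [1.12 to 2.25] for *Upp1*. In d3 EpiLC they were 1.68 [1.19 to 2.39], 1.88 [0.869 to 4.17] and 1.29 [0.945 to 1.77]. These splits were not used to choose the genes.

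In R1 d4 EB, *Rpl39l* went from 93 UMIs or 4.52 CPM [3.65 to 5.53] in WT to 1668 UMIs or 72.9 CPM [69.4 to 76.5] in dCD, a ratio of 16.1 [13.1 to 20.1]. *Upp1* went from 35.8 CPM [33.3 to 38.5] to 226 [220 to 232], a ratio of 6.30 [5.83 to 6.82]. *Hsd17b14* went from 4.61 CPM [3.73 to 5.64] to 19.9 [18.1 to 21.8], a ratio of 4.32 [3.45 to 5.44]. The counting intervals of the WT and dCD libraries do not overlap for any of the 3 genes, as the choice of the genes fixes. Single cells of the genotypes did overlap, as 1193 of 1416 WT and 773 of 1699 dCD cells had 0 *Upp1* UMIs. At least 2-fold higher in dCD, on the log2(CPM + 1) scale, were 129 of the 386 PGCLC genes (33.4%) and 6.31% of all 16272 genes tested.

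Listed genes next to the members in this ranking on log2(CPM + 1) were *Sycp3*, a component of the meiotic chromosome axis, with a log2 ratio of 3.01 below 3.74 for *Rpl39l*, *Dmrt1*, a germ cell transcription factor, with 2.72 just above 2.62 for *Upp1*, and *Pla2g1b* with 2.61 just below it. *Hsd17b14* had 1.90. Against all 16272 genes, *Rpl39l* stood at rank 16, *Upp1* at 59 and *Hsd17b14* at 195.

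The share of cells with a transcript rose along with the level. Unthinned, *Rpl39l* was found in 3.74% of WT and 31.8% of dCD cells, *Upp1* in 15.7% and 54.5%, and *Hsd17b14* in 4.31% and 15.1%. With cells thinned to 6831 UMIs, which left 1366 WT and 1529 dCD cells, the shares were 1.76% and 26.1%, 10.5% and 46.4%, and 2.71% and 8.50%. For comparison, in the WT cells of a cluster that resembles extraembryonic mesoderm, *Rpl39l* was found in 0 of 371 cells, *Hsd17b14* in 0.539% and *Upp1* in 5.12%, at a median depth of 12605 UMIs. At least 10 UMIs of *Upp1* were counted in 174 dCD cells and 18 WT cells, and of *Rpl39l* in 19 and 0.

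**Figure D2:**
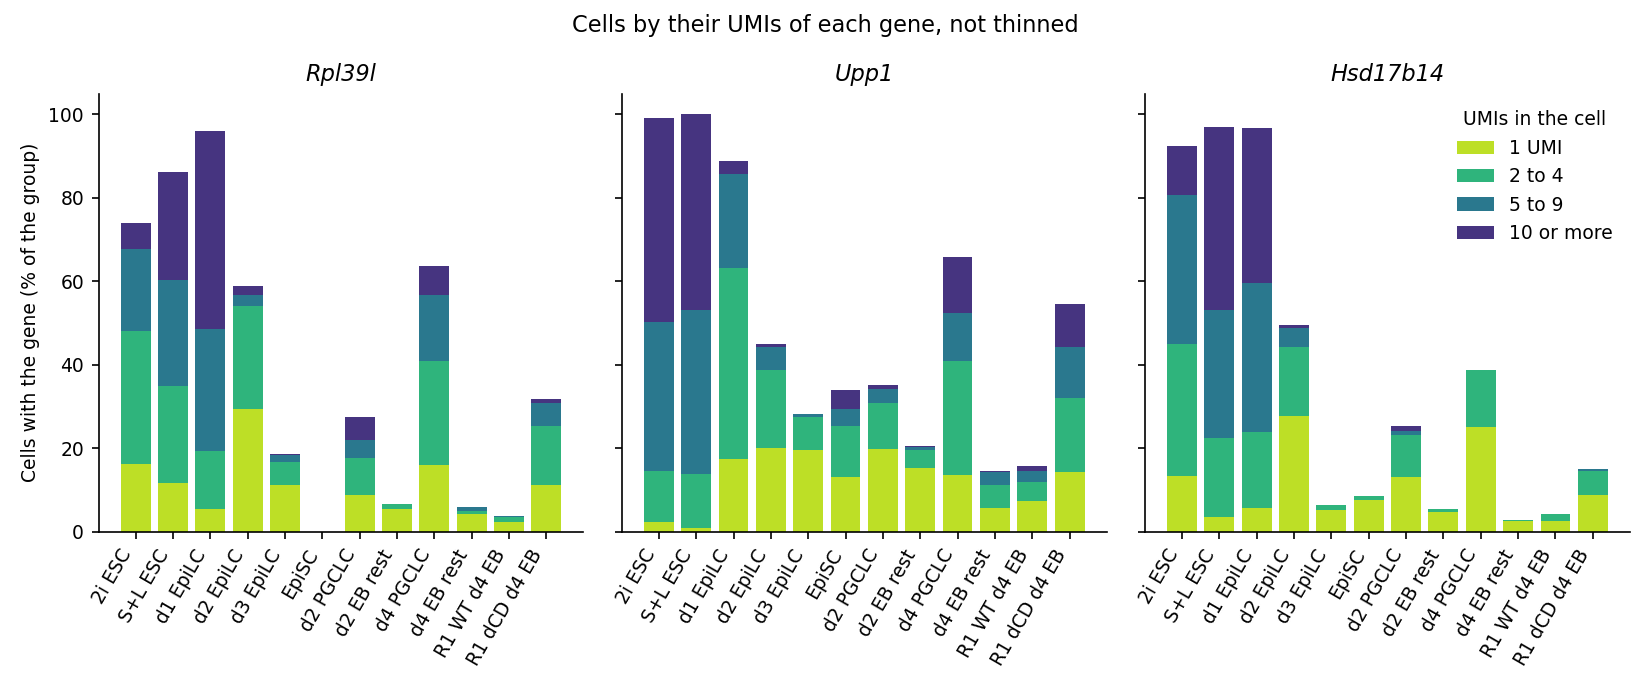
Percentage of cells of each group with 1, 2 to 4, 5 to 9, or 10 or more UMIs of *Rpl39l*, *Upp1* and *Hsd17b14*, stacked and not thinned for depth, for the 10 E14Tg2a groups and the 2 R1 libraries. Cells with 10 or more UMIs are common for *Rpl39l* in d1 EpiLC (133 of 280), *Upp1* in 2i ESC (111 of 227) and *Hsd17b14* in S+L ESC (136 of 309). They are fewer for *Rpl39l* in 2i ESC (14 of 227) and *Upp1* in d1 EpiLC (9 of 280). The dCD bar stands above the WT bar for each gene (31.8% against 3.74% for *Rpl39l*).

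Cells with *Zfp42* were more numerous in dCD EB, 779 of 1699 (45.9%) against 256 of 1416 (18.1%) in WT, or 38.7% and 15.2% after thinning. In WT, 97.8% of *Rpl39l*, 84.6% of *Upp1* and 95.8% of *Hsd17b14* UMIs came from cells with *Zfp42*. In dCD these shares were 80.5%, 82.5% and 96.9%, so the share outside these cells was larger in dCD for *Rpl39l* and, by less, for *Upp1*. The naive list of 7 genes had 4 members at least 2-fold higher in dCD (*Esrrb*, *Nr0b1*, *Tfcp2l1* and *Zfp42*) and a summed level of 314 CPM in WT and 581 in dCD, and within the cells with *Zfp42* 0 members and 1200.4 and 1032 CPM. Its part in the results was not tested beyond the splits that follow.

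Within the cells with *Zfp42*, *Rpl39l* had 20.6 CPM [16.6 to 25.3] in WT and 113 [107 to 119] in dCD, 5.49-fold more [4.44 to 6.87]. *Upp1* had 141 [130 to 153] and 359 [349 to 370], 2.54-fold more [2.34 to 2.77], and *Hsd17b14* 20.6 [16.6 to 25.3] and 37.2 [33.8 to 40.8], 1.81-fold more [1.44 to 2.29]. With any of the 7 naive markers in place of *Zfp42*, the ratios in positive cells were 12.2, 5.05 and 3.46. With cells thinned to 1 depth before *Zfp42* was read, the *Hsd17b14* ratio was 1.37, with an interval of 0.977 to 1.97 that includes no change. On the log2(CPM + 1) scale, 6.75% of the PGCLC genes tested were at least 2-fold higher in dCD here and as many were at least 2-fold lower, and *Rpl39l* and *Upp1* were among those higher. Over all genes tested, 6.91% were higher and 2.78% lower.

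Within the cells without *Zfp42*, the WT level of *Rpl39l* was close to 0 and the dCD level was not, and *Hsd17b14* was low in both genotypes (0.247 and 1.27 CPM). *Rpl39l* had 2 UMIs in 1160 WT cells (0.124 CPM) and 325 in 920 dCD cells (29.5 CPM [26.4 to 32.9]), a ratio of 239 whose interval runs from 65.5 to 1979. *Upp1* had 7.05 CPM [5.82 to 8.47] and 82.2 [76.9 to 87.7], 11.7-fold more [9.58 to 14.3]. *Hsd17b14* had 4 UMIs in WT and 14 in dCD (5.14-fold [1.61 to 21.4]), too few for the ranking. At least 2-fold higher here were 35.9% of the PGCLC genes tested and 6.45% of all genes, and 0.785% and 3.29% were lower. Of the listed genes with at least 50 UMIs only *Trap1a* had a larger log2 ratio than *Rpl39l*.

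Cells were also divided by their number of *Zfp42* UMIs, as a description of the comparison that chose the genes. In cells with 1 *Zfp42* UMI the dCD over WT ratio was 63.6 [11.3 to 2525] for *Rpl39l*, 45.6 [17.7 to 168] for *Upp1* and 9.84 [1.64 to 401] for *Hsd17b14*, with 1, 4 and 1 UMIs in WT. With 2 to 4 UMIs it was 12.7 [5.37 to 39.3], 2.87 [2.21 to 3.79] and 2.19 [1.01 to 5.65]. With 5 or more it was 4.72 [3.77 to 5.96], 2.42 [2.21 to 2.66] and 1.91 [1.502 to 2.46]. Among these classes of cells with *Zfp42*, the point ratios were lower where cells had more of it, and the trend was not tested. The ratios in cells without *Zfp42*, given above, did not continue this order for *Upp1* and *Hsd17b14*. For both they were below the ratios at 1 UMI.

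**Figure D3:**
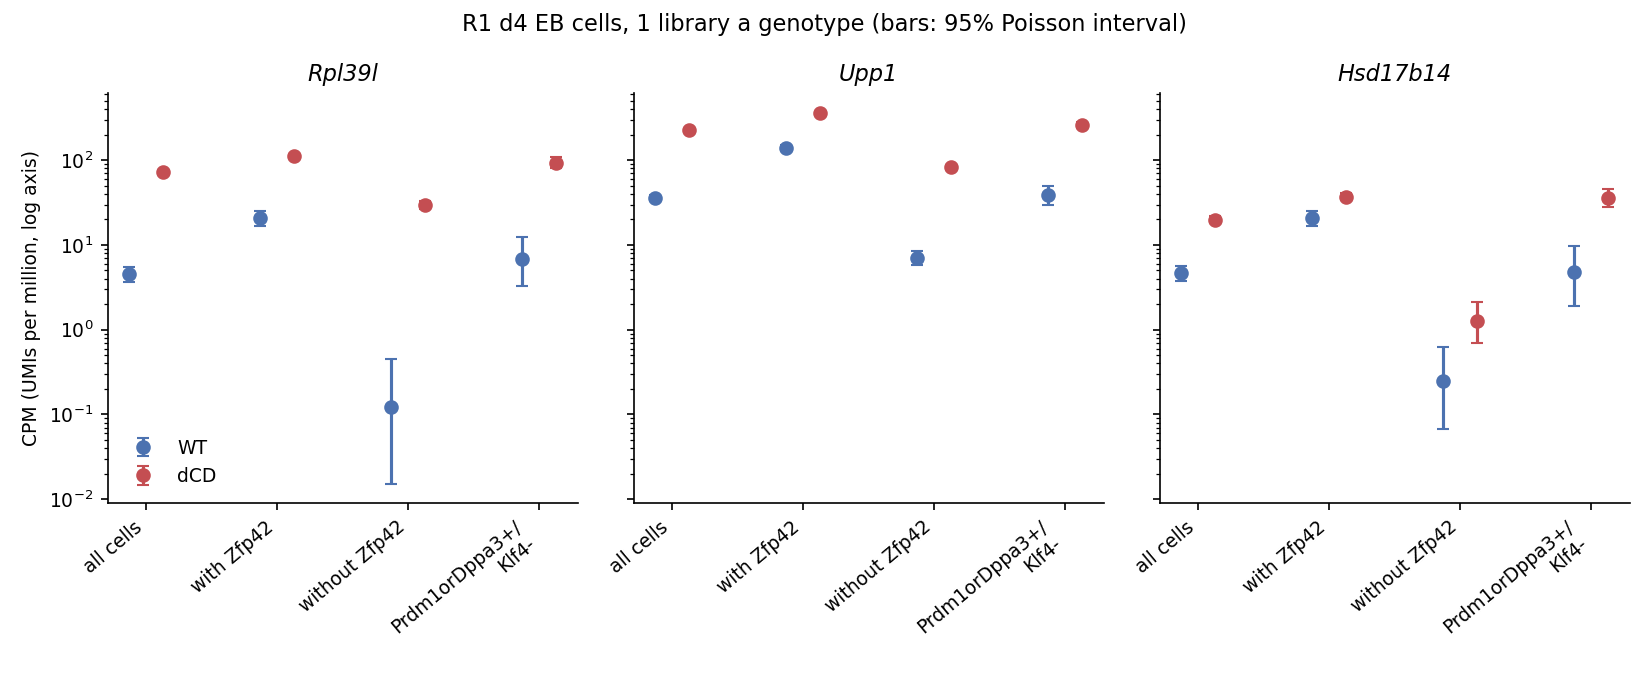
Levels of *Rpl39l*, *Upp1* and *Hsd17b14* in R1 WT and dCD d4 EB cells as CPM on a log axis, for all cells, cells with and without *Zfp42* UMIs, and *Prdm1orDppa3*+/*Klf4*- cells, with exact 95% Poisson intervals. The dCD point lies above the WT point in all 12 pairs, and the distance is widest for *Rpl39l* without *Zfp42* (0.124 and 29.5 CPM).

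The *Prdm1orDppa3*+/*Klf4*- cells, which the study used as cells expressing PGC markers without a naive one, numbered 89 in WT and 118 in dCD. In them *Rpl39l* had 6.78 CPM [3.25 to 12.5] in WT and 93.5 [80.2 to 108] in dCD, 13.8-fold more [7.32 to 29.3]. *Upp1* had 38.7 [29.3 to 50.1] and 260.2 [238 to 284], 6.73-fold more [5.11 to 9.02], and *Hsd17b14* 4.75 [1.91 to 9.78] and 35.8 [27.7 to 45.5], 7.54-fold more [3.47 to 19.5]. PGCLC genes at least 2-fold higher in dCD made up 11.7% of those tested, and 12.6% of all genes, while 9.92% and 3.49% were lower, with a median log2 ratio of -0.09 for the PGCLC genes. These cells lay in different clusters by genotype: of the WT cells, 46 were in the PGC-like cluster 7 described below, 26 in cluster 6 and 13 in the naive-like cluster 1, and of the dCD cells, 67 were in cluster 1 and 33 in cluster 2, with none in cluster 7. The clusters were made anew and are not those of the study. In the study's clusters, most of the WT cells of this class fell in PGCLC and many dCD ones in undefined clusters. With the thresholds set on raw UMIs the *Upp1* ratio was 13.6, and *Hsd17b14* had no WT UMIs. *Fgf4* (2.64), a growth factor of the early epiblast, and *Sycp3* (2.37) had the next log2 ratios below *Hsd17b14* (2.68). The *Zfp42* level of these cells was 374 CPM in WT and 350.0 in dCD, and in those of them with *Zfp42* the member ratios were 11.9, 6.64 and 7.63.

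**Figure D4:**
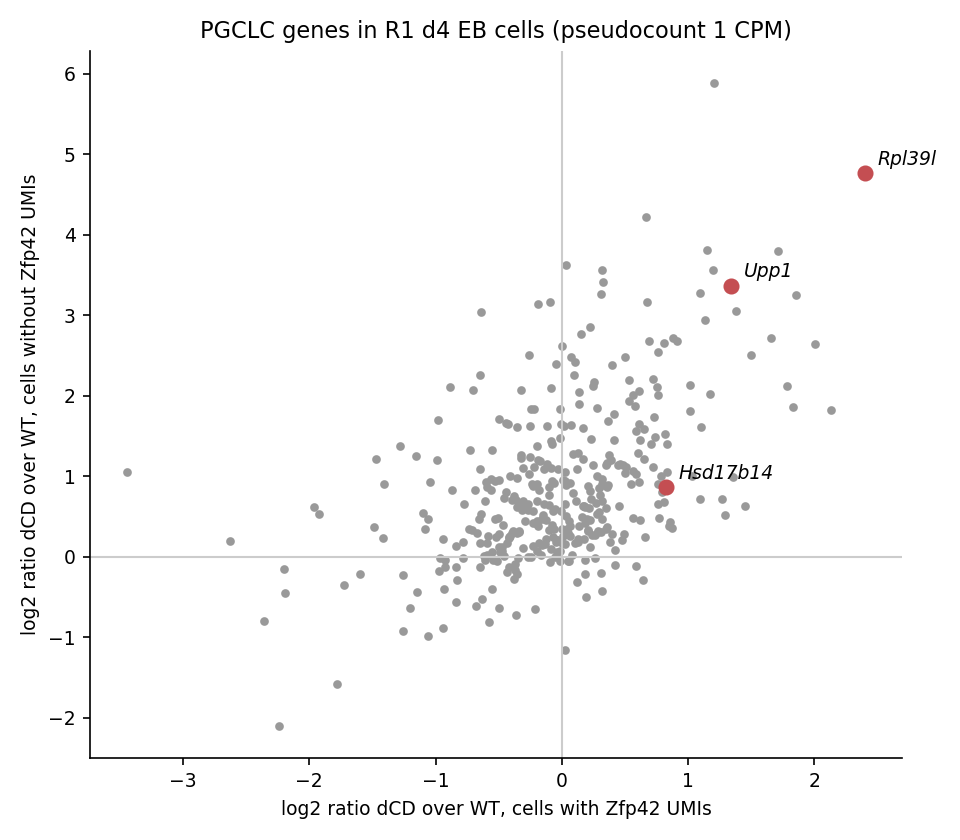
The log2 ratio of dCD over WT for PGCLC genes, with a pseudocount of 1 CPM, in cells with *Zfp42* UMIs on the x axis and in cells without them on the y axis, with 1 point per gene and the 3 members in red. *Rpl39l* lies farthest to the right at 2.40 and second from the top at 4.76, *Upp1* lies at 1.34 and 3.37, and *Hsd17b14* at 0.82 on the x axis.

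When the R1 cells of both genotypes were clustered together, 11 clusters were found, and their makeup differed by genotype. All 3 members were among the 2000 variable genes used, so their cluster levels are a description. Cluster 1 was naive pluripotency-like, with all 7 naive markers at least 2-fold higher than in the other cells, and held 115 WT and 462 dCD cells. It also had 4 of 6 PGC markers at least 2-fold higher, with a median fold of 3.06 against 14.7 for the naive list. It supplied 76.3% of WT and 60.7% of dCD *Rpl39l* UMIs, 78.3% and 67.5% of *Upp1*, and 93.7% and 88.6% of *Hsd17b14*, which is itself among its 10 leading genes.

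In cluster 1, *Rpl39l* had 37.5 CPM [29.3 to 47.3] in WT and 141 [132 to 150] in dCD (3.75-fold [2.95 to 4.84]). *Upp1* had 305 [281 to 331] and 485 [469 to 501] (1.59-fold [1.45 to 1.74]). *Hsd17b14* had 47.0 [37.8 to 57.9] and 56.1 [50.8 to 61.8], a ratio of 1.19 with an interval of 0.946 to 1.52. The counting intervals of the genotypes did not overlap for *Rpl39l* and *Upp1* and overlapped for *Hsd17b14*, in a cluster that these genes helped to define. At a finer resolution of 0.5 these cells parted mostly by library, into 452 dCD with 2 WT cells and 113 WT with 10 dCD cells. The latter then shared an unnamed cluster, led by PGC genes, with all 69 WT and 2 dCD cells of the PGC-like cluster 7. Over both of these unnamed clusters, and so with the PGC-like cells included, the ratios were 4.89, 2.41 and 1.90.

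A second site of *Rpl39l* in dCD was cluster 2, which held 8 WT and 500 dCD cells, was led by the embryonic globin genes *Hba-x*, *Hbb-y* and *Hbb-bh1* with *Rhox6* and *Rhox9*, and stayed unnamed. Its dCD cells had 82.9 CPM of *Rpl39l* [75.9 to 90.3] and 31.0% of all dCD *Rpl39l* UMIs, 146 CPM of *Upp1* [137 to 156] and 6.73 CPM of *Hsd17b14* [4.85 to 9.10]. *Zfp42* was detected in 50.0% of the cluster, and *Rpl39l* had 77.2 CPM in its dCD cells with and 89.8 CPM in those without *Zfp42*. Of the *Rpl39l* UMIs in dCD cells without *Zfp42*, 77.5% lay in this cluster. As 500 of its 508 cells are dCD, cluster and library cannot be told apart.

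Cluster 8 was 2-cell-like and held 43 dCD and 0 WT cells. Its levels were 223 CPM for *Rpl39l* [181 to 271] and 859 CPM for *Upp1* [776 to 949], the highest of any cluster for both, and 6.68 CPM for *Hsd17b14*, from 3 UMIs. It supplied 6.00% of the dCD *Rpl39l* UMIs and 7.46% of the *Upp1* UMIs. Of the 7 markers of the 2-cell list 6 were at 0 in WT, and the summed level of the list was 0.0486 CPM in WT and 24.6 CPM in dCD, where 4 of 4 markers tested were at least 2-fold higher.

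*Upp1* was spread more widely over the dCD clusters than the other members. In cluster 3, which stayed unnamed and was made of 21 WT and 445 dCD cells, dCD cells had 45.9 CPM of *Upp1* [40.04 to 52.3], 1.86 CPM of *Rpl39l* and 0.207 CPM of *Hsd17b14*. In cluster 5, which was shared more evenly with 151 WT and 113 dCD cells, *Upp1* had 6.21 CPM [3.79 to 9.59] in WT and 55.4 [46.4 to 65.6] in dCD, 8.92-fold more [5.55 to 15.1]. *Rpl39l* had 0 UMIs in WT (up to 0.931 CPM) and 22 in dCD (9.09 CPM) there, and *Hsd17b14* 2 UMIs in each genotype.

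In clusters 0 and 10 the *Upp1* levels of the genotypes had overlapping intervals. In cluster 0, led by *Col3a1* and *Adamts2* with 534 WT and 111 dCD cells, *Upp1* had 8.01 CPM [6.05 to 10.4] in WT and 9.26 [4.93 to 15.8] in dCD, and *Rpl39l* 0.572 CPM from 4 UMIs and 1.42 CPM from 2, while *Hsd17b14* had 1 UMI in WT and 4 in dCD, all 4 in 1 cell (19.9-fold [1.97 to 981]). The endothelium-like cluster 10, with 22 WT and 10 dCD cells, had 61.3 CPM of *Upp1* in WT and 61.0 in dCD, a ratio of 0.995 [0.351 to 2.50], with 0 UMIs of *Rpl39l* and *Hsd17b14*. The extraembryonic mesoderm-like cluster 4 held 371 WT and 0 dCD cells and had 4.31 CPM of *Upp1*, 0.410 CPM of *Hsd17b14* and 0 UMIs of *Rpl39l* (up to 0.616 CPM). The summed extraembryonic mesoderm list was 1014 CPM in WT and 266 CPM in dCD, with 5 of 7 markers at least 2-fold lower, and its part in the genotype ratios over all cells was not tested.

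The PGC-like cluster 7 held 69 WT and 2 dCD cells and separated the members. Its WT cells had 14.5 CPM of *Rpl39l* [8.31 to 23.6] and 24.5 CPM of *Upp1* [16.2 to 35.7], both below the WT cells of cluster 1, and 0 *Hsd17b14* UMIs, which allows up to 2.73 CPM against 47.0 CPM in cluster 1. The members helped to define these clusters. At resolution 0.5 these 69 WT cells merged with most WT cells of cluster 1. The 183 WT cells of that merged cluster had 28.9 CPM of *Hsd17b14*. Cluster 6, with 99 WT and 4 dCD cells, stayed unnamed. At least 2-fold higher there were 5 of 6 PGC markers and 3 of 6 primitive streak or nascent mesoderm markers. WT cells of cluster 6 had 1 UMI of *Rpl39l* (0.745 CPM), 3 UMIs of *Upp1* (2.24 CPM) and 0 of *Hsd17b14*. In the listed PGCLC of E14Tg2a at d4, *Hsd17b14* had 23.7 CPM. The line, the kit and the way the cells were assigned differ, so the values stand side by side without a comparison. The summed PGC list was 108 CPM in WT and 104 CPM in dCD with 0 of 6 markers at least 2-fold apart, and within cells with *Zfp42* 353 and 158 CPM, with *Dppa3* and *Nanos3* lower.

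**Figure D5:**
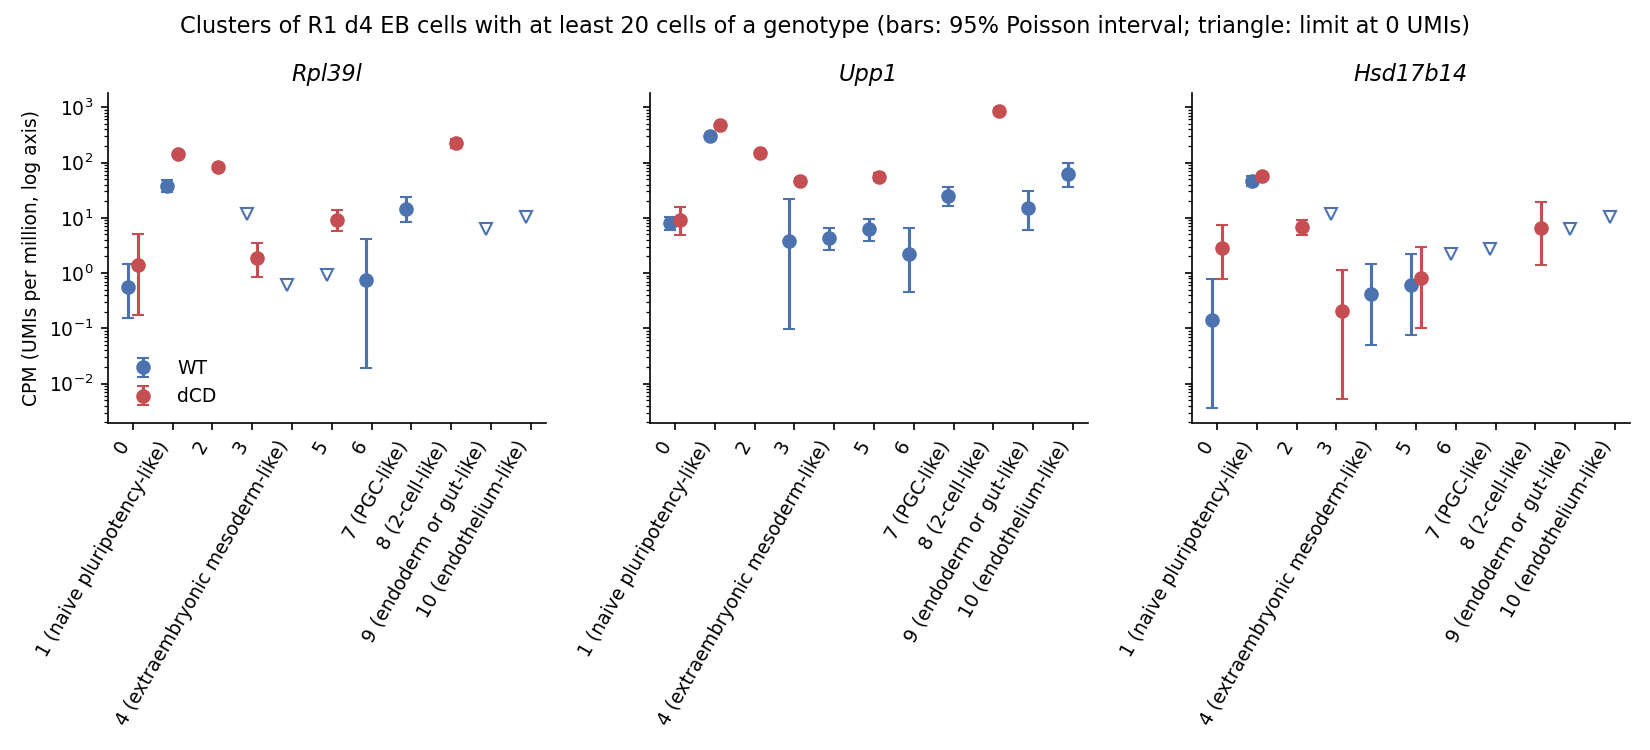
Levels of *Rpl39l*, *Upp1* and *Hsd17b14* by cluster of R1 d4 EB cells and genotype, as CPM on a log axis with exact 95% Poisson intervals and open triangles for the limit at 0 UMIs, for clusters with at least 20 cells of a genotype. *Rpl39l* is high in dCD cells of clusters 1, 2 and 8 (141, 82.9 and 223 CPM), *Upp1* is spread over more clusters, and *Hsd17b14* is high in cluster 1 alone.

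The members tended to be found in the same cells, in both genotypes. After thinning, 56 of 1529 dCD cells (3.66%) held all 3 members and 688 (44.997%) none, against 6 of 1366 (0.439%) and 1207 (88.4%) in WT. *Rpl39l* was detected in 39.2% [35.5 to 42.8] of the dCD cells with *Upp1* and 14.8% [12.4 to 17.4] of those without. *Hsd17b14* was detected in 15.6% [13.0 to 18.5] of the dCD cells with *Upp1* and 2.32% [1.40 to 3.60] of those without.

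Co-detection with other genes was read in the same thinned cells. Of the 25 thinned dCD cells with *Zscan4d*, a gene of the 2-cell stage, 18 held *Rpl39l*, 17 held *Upp1* and 1 held *Hsd17b14*. Among dCD cells with *Hand1*, a mesoderm factor, 4.70% held *Rpl39l*, 20.3% *Upp1* and 0.743% *Hsd17b14*, against 33.8%, 55.8% and 11.3% of the dCD cells without it. With *Prdm1*, 27.3% of dCD cells held *Rpl39l* [18.8 to 37.2] and without it 26.0% [23.8 to 28.4], and these intervals overlapped. Other PGC markers differed from *Prdm1* in this. The shares with and without *Dppa3* were 42.2% [31.4 to 53.5] and 25.2% [23.0 to 27.5]. For *Prdm14* they were 45.5% [30.4 to 61.2] and 25.5% [23.3 to 27.8], and for *Tfap2c* 36.3% [30.4 to 42.5] and 24.0% [21.7 to 26.5].

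Genes of the same families mostly did not follow. Of 15 ribosomal protein paralogs tested, 3 were at least 2-fold higher in dCD and 0 lower. Besides *Rpl39l* these were *Rpl10l*, a paralog of *Rpl10* known from male germ cells, with 42 UMIs in WT and 501 in dCD (10.7-fold [7.82 to 15.1]), and *Rpl3l*, known from striated muscle, with 2 and 28 UMIs. The ordinary *Rpl39* had 2982 CPM in WT and 3373 in dCD, 1.13-fold more, and *Rpl10* 1185 and 1231. The median log2 ratio of the list was 0.20, against 0.03 over all genes.

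In pyrimidine salvage, uptake and breakdown, 3 of 28 genes tested were at least 2-fold higher and 0 lower, with a median log2 ratio of 0.27. Besides *Upp1* they were *Slc29a1*, a nucleoside transporter, with 29.1 CPM in WT and 94.7 in dCD (3.25-fold [2.97 to 3.57]), and *Dpys*, a dihydropyrimidinase of uracil breakdown, with 5.68 and 19.2 CPM (3.38-fold [2.75 to 4.18]). These values are over all cells, and the set changed with the *Zfp42* split. Within cells with *Zfp42*, *Cda*, *Nt5e*, *Tk1*, *Uckl1* and *Upp1* were at least 2-fold higher, of 24 tested. Within cells without it, *Cda*, *Slc29a1* and *Upp1* were, of 25 tested. Over all cells the second uridine phosphorylase, *Upp2*, had 5.83 and 4.67 CPM, and the uridine kinase *Uck2* 60.1 and 85.2. Of 19 hydroxysteroid and related dehydrogenases tested, *Hsd17b14* and *Cbr3* (3.16 and 7.51 CPM) were at least 2-fold higher and *Rdh10*, a retinol dehydrogenase, was lower (20.1 and 8.96 CPM). *Hsd17b10*, a mitochondrial member, had 93.1 and 94.5 CPM. The share over all genes tested was 6.31% higher, as above, and 3.68% lower, over all cells. Within cells with *Zfp42* 6.91% of all genes tested were higher, and within cells without it 6.45%.

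Across the 10 E14Tg2a groups, Pearson's r of log2(CPM + 1) was 0.89 between *Rpl39l* and *Hsd17b14*, 0.85 between *Hsd17b14* and *Upp1*, and 0.68 between *Rpl39l* and *Upp1*, and 0.91, 0.80 and 0.75 with *Zfp42* for *Rpl39l*, *Hsd17b14* and *Upp1*. The groups share libraries and depth, so these are descriptions over 10 points. Of 9384 genes compared, the 5 most like *Rpl39l* were *2410141K09Rik* (r = 0.98), *Psma8*, a proteasome subunit of the testis, and the zinc finger genes *Zfp459*, *Zfp987* and *Zfp981*. Those most like *Upp1* were *Fam81a* (0.95), *Itpka*, *Epop*, *Usp48* and *Eed*, the last a core subunit of Polycomb repressive complex. The gene most like *Hsd17b14* was *Sult6b1* (0.97), and *Gtsf1*, a gametocyte factor, *Rpl10l* (0.96) and *Lrrc2* were also among its 5. *Rpl39l* and *Upp1* were thus less like each other than either was like *Hsd17b14*.

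In the whole d4 EB library of E14Tg2a, the levels were 15.6 CPM for *Rpl39l*, 28.6 for *Upp1* and 3.75 for *Hsd17b14*. R1 WT d4 EB had 4.52, 35.8 and 4.61 CPM. The lines and the kits differ between these libraries, and no ratio was taken.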

How the data were processed

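UMI tables of the E14Tg2a stages and of the R1 EB were used, in which each value is a count of UMIs per gene and cell, as the authors deposited it. The authors aggregated the E14Tg2a libraries after bringing them to equal mapped reads per cell, which lowers the counts of deeper libraries, and left the R1 counts as they were, as far as the sources tell. Reads were aligned to mm10, and Cell Ranger is named for the E14Tg2a libraries only. The R1 table kept cells with at least 2000 genes. The 3 members and all gene lists were chosen with earlier results of these data known. UMIs were summed per group and divided by the group total (CPM), with exact 95% intervals. With 1 library per condition no test was run. Genes with at least 10 UMIs were compared on log2(CPM + 1) and called at 2-fold, and genes with at least 50 UMIs were ranked. For shares, cells were thinned to 15374 UMIs in E14Tg2a and 6831 in R1. *Prdm1orDppa3*+/*Klf4*- cells had log-normalised *Dppa3* above 0.1 or *Prdm1* above 1, and *Klf4* below 1. R1 cells were clustered with Seurat 5.3.0 in R 4.3.3 (2000 variable genes, 10 components, resolution 0.3). Scrublet in scanpy 1.11.5 marked 0.589% to 6.23% of cells per library as doublets, which were kept. Named genes were the members, the genes of the lists that passed 2-fold, the listed genes next in rank, and the 5 genes most like each member by Pearson's r over 10 groups, among genes reaching 10 CPM. The scripts were tested on simulated data.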

Additional observations from a re-analysis of the deposited data

How the results depend on the processing

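No paired analysis was possible because each group is 1 library and the labels give no replicate numbers, so no library could be left out either. Of 84 alternatives to the comparisons, 56 stayed within the interval of the reported value, 28 moved outside it and 0 reversed, and of 90 stage levels 58 stayed and 32 moved. Listed PGCLC over remaining EB cells came to 27.7, 8.53 and 18.4 for *Rpl39l*, *Upp1* and *Hsd17b14* at d4 alone, and for *Upp1* to 2.40 at d2 alone and 3.35 with PGCLC holding *Prdm1* or *Dppa3* UMIs. *Hsd17b14* in d1 EpiLC over 2i ESC was 1.51 without mitochondrial and ribosomal genes in the total. With a pseudocount of 5 the log2 dCD over WT ratios were 3.03, 2.50 and 1.37. With any naive marker in place of *Zfp42*, the ratios in positive cells were 12.2, 5.05 and 3.46, and that of *Upp1* in negative cells 8.58. With at least 2 *Zfp42* UMIs required, *Upp1* gave 15.2 without and 2.32 with *Zfp42*. Thinning gave 1.37 for *Hsd17b14* with *Zfp42*, and shares of 1.76% and 26.1% for *Rpl39l*, 10.5% and 46.4% for *Upp1*, and 2.71% and 8.50% for *Hsd17b14* in WT and dCD. Thresholds on raw UMIs for *Prdm1orDppa3*+/*Klf4*- cells gave 13.6 for *Upp1* and no ratio for *Hsd17b14*, which had no WT UMIs. Resolution 0.5 gave 4.89, 2.41 and 1.90 over the 2 unnamed clusters with the naive list as their best match, which include the PGC-like cells. PGCLC genes higher in dCD numbered 209 at 1.5-fold and 48 at 3-fold, against 129 at 2-fold. Where a setting changed a value the cause was not tested.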

Other observations

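Genes whose E14Tg2a pattern was most like that of a member were also read in R1 d4 EB. *Psma8*, like *Rpl39l*, had 0.923 CPM in WT and 6.99 in dCD, *Sult6b1*, like *Hsd17b14*, 0.826 and 5.59, and *Fam81a*, like *Upp1*, 6.85 and 24.3. In the sets of the 5 genes most like *Rpl39l* and most like *Upp1*, the other genes rose less. In the *Hsd17b14* set, *Rpl10l*, *Lrrc2* (log2 ratio 1.97) and *Gtsf1* (1.90) rose more than *Sult6b1* (1.85), and *1700061G19Rik* rose less. Over the *Rpl39l* set, log2 ratios of dCD over WT ran from 0.56 (*Zfp459*) to 2.05 (*Psma8*). They ran from 0.17 (*Eed*) to 1.69 (*Fam81a*) for *Upp1*, and from 0.94 (*1700061G19Rik*) to 2.91 (*Rpl10l*) for *Hsd17b14*. *Rhox6* and *Rhox9*, homeobox genes among the leading genes of the cluster that held 31.0% of the dCD *Rpl39l* UMIs, had 4.23 and 5.83 CPM in WT and 110.1 and 91.3 in dCD. These genes were chosen after values had been seen, and nothing was tested.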
